A study of Mus musculus with 4 samples.

Results

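Muscle actins and smooth muscle genes were followed through 4 mouse cell populations on the way from mesodermal precursors to cardiomyocytes. The genes were taken by RefSeq identifier, 8 in all, with no cut-off on their signals, but with earlier results of these data known. Of the 8, 7 were found among the 33226 identifiers on the arrays. The 7 were the muscle actins Actc1, Acta1, Acta2 and Actg2, together with Tagln, Cnn1 and Myl9. NM_013607, the identifier listed for Myh11, was not found, and Myh11 was read through NM_001161775 instead, which was chosen after its values were seen and is not counted among the 7.

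Vertebrate muscle has 4 actins: cardiac (Actc1), skeletal (Acta1), vascular smooth muscle (Acta2) and enteric smooth muscle (Actg2), which differ in few residues and polymerise into the thin filaments that myosin pulls on. Smooth muscle actin, transgelin and calponin are best known from vessel walls, but are also made for a time by young cardiomyocytes of the embryonic heart, so they do not by themselves mark smooth muscle cells. Many of these genes are driven by serum response factor (SRF), which binds the CArG box and works with myocardin.

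The populations were Flk1+ MPCs, the sorted mesodermal precursors at day 4.5, PCBs, the PDGFRα+Flk1- cardioblasts obtained with CsAYTE by day 5.5, sfPCBs, which formed without CsAYTE by the same day, and M+CMs, the αMHC+ cardiomyocytes at day 10.5. All came from mouse pluripotent stem cells, labelled as embryonic stem cells and differentiated in medium lacking leukemia inhibitory factor. CsAYTE joins Cyclosporin A with Y27632, which inhibits ROCK, EW7197, which inhibits ALK5, and Trolox, which is an antioxidant, and its vehicle was DMSO. For M+CMs the labels leave it unsaid if CsAYTE was given. The study's EMG7 cells carry GFP under the αMHC promoter, so M+CMs are selected for a cardiomyocyte gene, but the labels do not name the line on each array. Its protocol placed sorted Flk1+ MPCs on OP9 stromal cells or on gelatin, and which was used for these arrays is not given in the sources used here.

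Each population had 1 array and no replicate, all on 1 slide, so no test was possible and array and population cannot be told apart. Values are processed signals scaled so that the 75th percentile of every array was 2198. A log2 ratio is given with the scanner software's own error, which was 0.20 for the 7 genes except where stated and covers the spot and its background, not the spread between cultures. Well above background were between 73.3% and 76.2% of the spots of an array, and none was saturated. In the label check, Mesp1 read 42204 in Flk1+ MPCs and 179 in sfPCBs and was not well above background in PCBs and M+CMs. The summed signal of 6 cardiomyocyte markers (Myh6, Myh7, Tnnt2, Tnni3, Actn2 and Ryr2) was 784 in Flk1+ MPCs, 467737 in PCBs, 4207 in sfPCBs and 1290710 in M+CMs. Such a sum is carried by its brightest probes, here Myh6, Myh7 and Tnnt2. From sfPCBs to PCBs each of the 6 passed 2-fold upwards, where 6.19% of all identifiers did. Kdr, which encodes Flk1, still read 7272 in PCBs and 6661 in sfPCBs against 11263 in Flk1+ MPCs, and Pdgfra read 7237 in Flk1+ MPCs, 9136 in PCBs and 3647 in sfPCBs.

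All 7 genes had more signal in M+CMs than at day 4.5, but the step at which each gained its signal differed. Actc1 and Cnn1 were high in PCBs and stayed at or below the precursor level in sfPCBs. Acta1, Acta2 and Actg2 were at least 10.1-fold above the precursors in both day 5.5 populations, though other processing took Acta1 and Actg2 below that bound. Tagln varied least, and Myl9 gained most of its signal between PCBs and M+CMs. Each gene was well above background on every array and was read by 1 probe, so the order of populations can be read for a gene, but the levels of different genes cannot be compared.

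**Figure D1:**
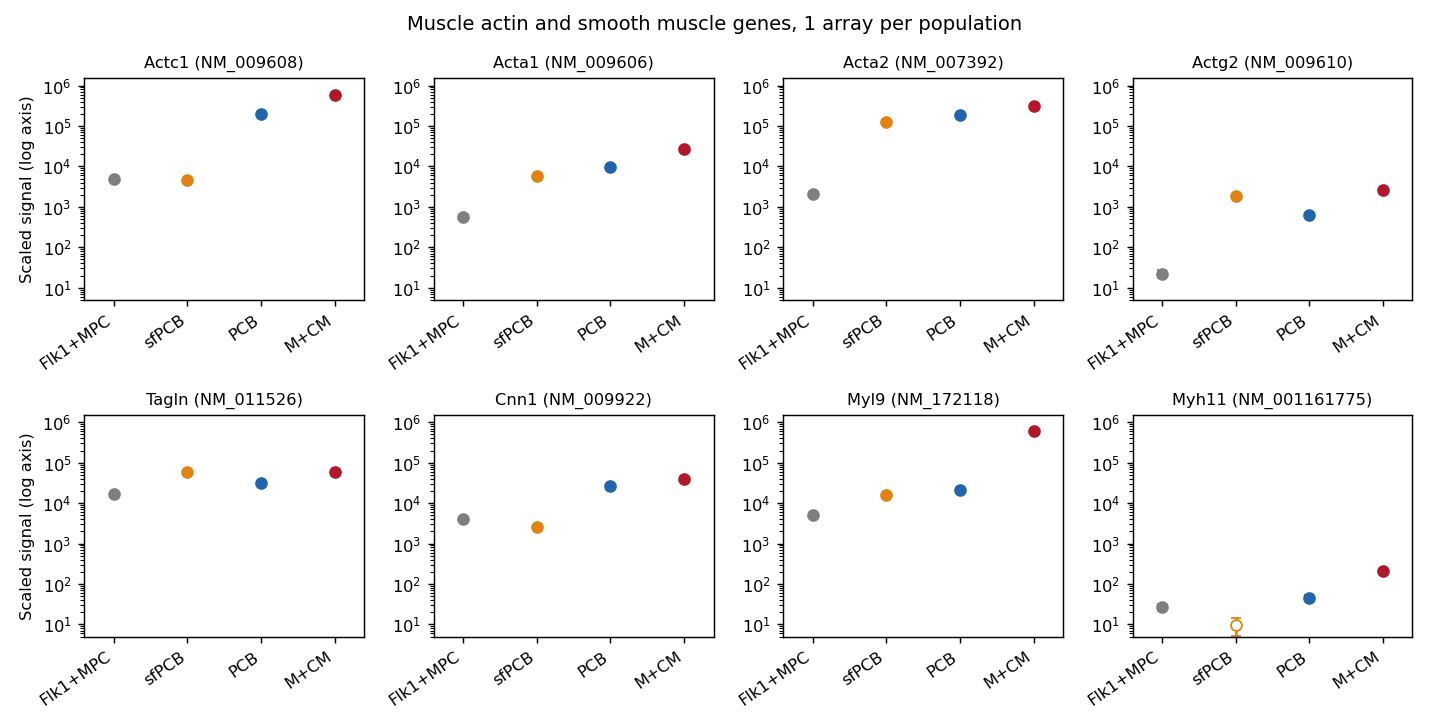
Scaled signal (log axis) of each gene in the 4 populations, 1 array each, with bars for the software's error, mostly smaller than the points, and an open point where the signal was not well above background. Actc1 and Cnn1 were as low in sfPCBs as in Flk1+ MPCs or lower, whereas Acta2 was at 124536 or above in sfPCBs, PCBs and M+CMs. Myl9 was highest in M+CMs (604757).

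Actc1, the actin of the cardiac sarcomere (NM_009608, chr2:114047282-114052875 on GRCm38.p6), read 4786 in Flk1+ MPCs, 203317 in PCBs, 4733 in sfPCBs and 598466 in M+CMs. It was the only one of the 4 actins that stood at the precursor level without CsAYTE. The log2 ratio of sfPCBs over Flk1+ MPCs was -0.02, within its error, and its sign turned with quantile normalization, without scaling and with normexp background correction, so these arrays give no order for that pair. PCBs were 42.5-fold above Flk1+ MPCs (log2 ratio 5.41) and 43.0-fold above sfPCBs (log2 ratio 5.42), the 46th highest ratio among 25219 identifiers compared. M+CMs were a further 2.94-fold above PCBs. The M+CM value stood at percentile 99.991 of that array's identifiers, and whether signals so high are compressed was not tested.

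Acta1, the actin of adult skeletal muscle (NM_009606, chr8:123891758-123894775), read 570 in Flk1+ MPCs, 9940 in PCBs, 5783 in sfPCBs and 26918 in M+CMs. Most of its gain was present in both day 5.5 populations, at 10.1-fold in sfPCBs and 17.4-fold in PCBs over Flk1+ MPCs. PCBs exceeded sfPCBs by a log2 ratio of 0.78, which became 1.14 with normexp background correction. The skeletal muscle regulators Myod1, Myog, Myf5 and Myf6 had a summed signal between 44.9 and 58.6 over the populations, with at most 1 of the 4 well above background on any array.

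Acta2, the smooth muscle actin of vessels (NM_007392, chr19:34240336-34255585), read 2125 in Flk1+ MPCs, 191818 in PCBs, 124536 in sfPCBs and 312114 in M+CMs. Its log2 ratio over Flk1+ MPCs was 5.87 in sfPCBs and 6.50 in PCBs, so by day 5.5 the signal was 58.6-fold and 90.3-fold higher. Acta2 was the gene of the 7 with repeated spots, 10 on each array. These ranged from 1855 to 2266 in Flk1+ MPCs, from 177597 to 204664 in PCBs, from 109875 to 135229 in sfPCBs and from 292234 to 333657 in M+CMs, and no 2 arrays overlapped. The 1.54-fold step from sfPCBs to PCBs was thus larger than the spread between spots, whose SD was at most 0.09 on the log2 scale. The spots share 1 labelled RNA on each array and say nothing of the spread between cultures.

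**Figure D2:**
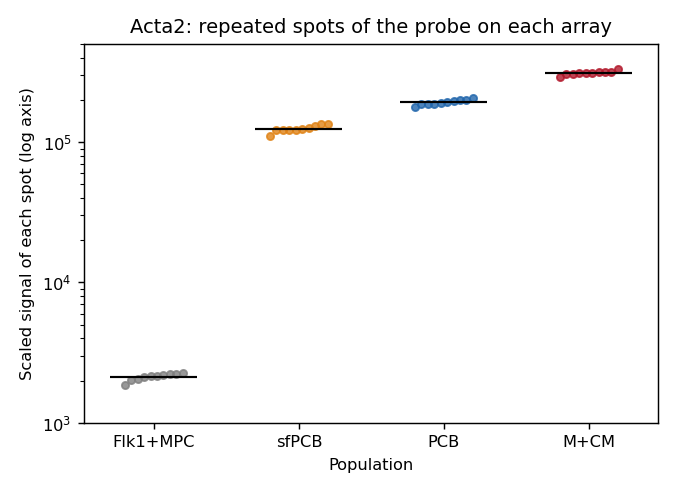
Scaled signal (log axis) of the 10 spots of the Acta2 probe on each array, with the geometric mean as a line. The spots of the 4 populations did not overlap, from 1855 to 2266 in Flk1+ MPCs up to 292234 to 333657 in M+CMs.

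Actg2, the enteric smooth muscle actin (NM_009610, chr6:83512909-83536251), read 22.1 in Flk1+ MPCs, 639 in PCBs, 1904 in sfPCBs and 2570 in M+CMs. It was 2.98-fold higher in sfPCBs than in PCBs, the opposite direction to the other 3 muscle actins. The Flk1+ MPC value lay close to the lowest scaled signal called well above background on that array (15.9), so the ratios against it are uncertain in size. They were 6.43 (error 0.33) in sfPCBs and 4.85 (error 0.33) in PCBs on the log2 scale, and normexp background correction lowered them to 4.31 and 2.80.

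The muscle actin probes target near-identical paralogs, and their sequences were not used here, so signal shared between them was not tested. The patterns of the 4 actins differed: sfPCBs were at the precursor level for Actc1, between precursors and PCBs for Acta1 and Acta2, and above PCBs for Actg2. The cytoplasmic actins, made in most cells, did not follow the muscle actins. From Flk1+ MPCs to M+CMs, Actb went from 526713 to 269044 and Actg1 from 490654 to 382663.

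Because SRF binding motifs are a known feature of these genes, the 250 bases before the transcript start that a RefSeq promoter table (GRCm38.p6) takes for each gene were read, for the 5 of the 8 genes in the table. This start is the edge of the gene record for Actc1 and Acta1 but lies inside it by 212 bases for Acta2, 56 for Myl9 and 32 for Cnn1, and distances count from it. A CArG box (CC, 6 bases of A or T, GG, read on both strands) was present in 3 of the 5, against 1.47% of all 32851 promoters. Actc1 had CCAAATAAGG 47 bases before that start, Acta1 had CCAAATATGG 73 bases before and Myl9 had CCTAATAAGG 161 bases before. Allowing 1 of the 6 bases to be other than A or T, which 8.59% of all promoters did, Acta2 had 2 matches, 84 and 34 bases before that start and thus within its gene record, and Cnn1 had none. The sequences of the 3 genes with a CArG box are shown in the direction of transcription, with capitals for each match to the box, including those with 1 such base, and the bases that lie inside the gene record left out. They come from the minus strand at chr2:114052876-114053125 for Actc1 and chr8:123894776-123895025 for Acta1, and from the plus strand at chr2:156775214-156775407 for Myl9.
Actc1: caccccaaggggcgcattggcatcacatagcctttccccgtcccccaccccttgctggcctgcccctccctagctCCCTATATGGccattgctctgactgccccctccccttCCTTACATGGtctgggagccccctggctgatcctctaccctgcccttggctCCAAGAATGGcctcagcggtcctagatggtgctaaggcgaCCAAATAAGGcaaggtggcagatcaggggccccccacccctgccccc
Acta1: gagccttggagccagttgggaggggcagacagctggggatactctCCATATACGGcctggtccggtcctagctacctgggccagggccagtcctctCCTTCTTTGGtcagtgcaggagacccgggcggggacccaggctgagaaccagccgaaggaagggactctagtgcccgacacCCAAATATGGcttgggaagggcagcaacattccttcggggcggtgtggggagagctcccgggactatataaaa
Myl9: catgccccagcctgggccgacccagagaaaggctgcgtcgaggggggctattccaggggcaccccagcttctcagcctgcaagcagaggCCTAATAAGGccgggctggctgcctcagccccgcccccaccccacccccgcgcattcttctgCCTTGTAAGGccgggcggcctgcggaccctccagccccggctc
The 3 promoters with a CArG box belong to genes with different patterns over the populations: the signal of Actc1 was high with CsAYTE and not without it at day 5.5, that of Acta1 was high in both, and that of Myl9 came late. A match is a description of the letters in this window, and SRF binding was not measured.

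Tagln, which encodes the actin-binding protein transgelin (NM_011526, chr9:45929628-45936058), read 16450 in Flk1+ MPCs, 32214 in PCBs, 58693 in sfPCBs and 57784 in M+CMs. Its signal was thus already high in the precursors and spanned the narrowest range of the 7 genes. The sfPCB and M+CM values lay within the error of each other. PCBs were 1.96-fold above Flk1+ MPCs and 1.82-fold below sfPCBs. Both ratios sit close to 2-fold: the log2 ratio over Flk1+ MPCs was 0.97 and became 1.17 with quantile normalization and 1.15 without scaling, and that of PCBs over sfPCBs went from -0.87 to -1.02 without scaling.

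Cnn1, which encodes calponin, a regulator of actomyosin (NM_009922, chr9:22099221-22109221), read 3990 in Flk1+ MPCs, 27099 in PCBs, 2501 in sfPCBs and 40279 in M+CMs. As for Actc1, its signal was high in PCBs and M+CMs and not in sfPCBs. PCBs were 10.8-fold above sfPCBs (log2 ratio 3.44, rank 152 of 25219) and 6.79-fold above Flk1+ MPCs, while sfPCBs lay below Flk1+ MPCs (log2 ratio -0.67). M+CMs were 1.49-fold above PCBs.

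Myl9, a regulatory light chain of smooth muscle and non-muscle myosin (NM_172118, chr2:156775408-156781657), read 5212 in Flk1+ MPCs, 21460 in PCBs, 16136 in sfPCBs and 604757 in M+CMs. The 2 day 5.5 populations differed by a log2 ratio of 0.41, which is 1.33-fold. M+CMs were 28.2-fold above PCBs (log2 ratio 4.82, rank 180 of 26114), the largest step of any of the 7 genes in that comparison. As for Actc1, the M+CM value stood near the top of the array (percentile 99.997), where compression was not tested.

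Myh11, the smooth muscle myosin heavy chain (NM_001161775, chr16:14194527-14292188), was dim throughout. It read 27.1 in Flk1+ MPCs, 45.8 in PCBs and 215 in M+CMs and was not well above background in sfPCBs. M+CMs were 4.69-fold above PCBs (log2 ratio 2.23, error 0.25).

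Counted over the genes, 6 of the 7 exceeded Flk1+ MPCs at least 2-fold in PCBs and none was 2-fold lower, where over all 25840 identifiers compared 12.8% were higher and 12.1% lower. Tagln, at 1.96-fold, was the exception, and passed with quantile normalization or no scaling. The median log2 ratio was 4.12 for the 7 genes and -0.20 for all identifiers. At the study's 30-fold threshold, Actc1 and Acta2 passed, against 1.38% of all identifiers, and Actg2, at 28.9-fold, passed as well without scaling.

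In sfPCBs over Flk1+ MPCs, 5 of the 7 were called higher and none was lower, with 13.2% and 12.6% over all identifiers and a median of 1.84 against -0.22. Acta2 and Actg2 passed 30-fold, against 1.33% of all identifiers, but Actg2 no longer did with normexp background correction or an offset of 50. The 2 day 5.5 comparisons share the Flk1+ MPC array.

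Between PCBs and sfPCBs directly, PCBs were at least 2-fold higher for 2 of the 7 (Actc1 and Cnn1) and 1 was lower (Actg2), where 6.19% of all identifiers were higher and 7.61% lower. Without scaling, Tagln was lower as well, which gave 2 higher and 2 lower, and with normexp background correction Acta1 was higher as well, which gave 3 higher and 1 lower. The median was 0.62 for the 7 genes and 0.02 for all identifiers. Actc1 passed 30-fold, as did 0.266% of all identifiers.

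From PCBs to M+CMs, 4 of the 7 (Actc1, Acta1, Actg2 and Myl9) were at least 2-fold higher and none was lower, where 20.6% of all identifiers were higher and 15.3% lower, with a median of 1.44 against 0.16. From Flk1+ MPCs to M+CMs, 7 of the 7 passed 2-fold upwards, where 22.3% of all identifiers were higher and 21.7% lower. The median log2 ratio was 6.86 for the 7 genes, and 5 of them passed 30-fold (Actc1, Acta1, Acta2, Actg2 and Myl9), against 1.97% of all identifiers. With normexp background correction Actg2 no longer did, which left 4.

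**Figure D3:**
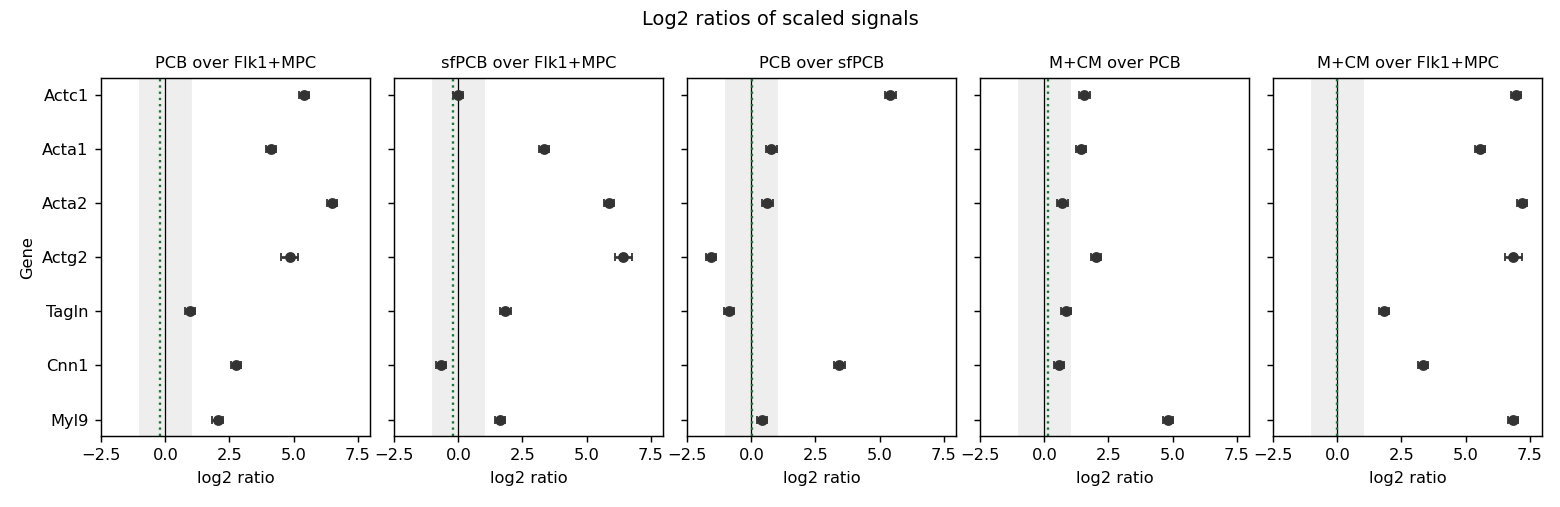
Log2 ratios of the 7 genes in the 5 comparisons, with bars for the software's error, grey for less than 2-fold and a dotted green line for the median of all identifiers compared. Actc1 (5.42) and Cnn1 (3.44) lay to the right for PCBs over sfPCBs and Actg2 (-1.57) to the left, and Myl9 (4.82) stood apart for M+CMs over PCBs.

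The share of each gene's log2 gain from Flk1+ MPCs to M+CMs that was present by day 5.5 puts the genes on 1 scale. For Actc1 and Myl9 it rests on M+CM signals near the top of the array. For Actg2 it rests on a Flk1+ MPC signal near background, and its size is uncertain. In PCBs it was 90.2% for Acta2, 82.9% for Cnn1, 77.6% for Actc1, 74.2% for Acta1, 70.7% for Actg2, 53.5% for Tagln and 29.8% for Myl9. In sfPCBs it was 101% for Tagln, 93.7% for Actg2, 81.6% for Acta2, 60.1% for Acta1, 23.8% for Myl9, -0.23% for Actc1 and -20.2% for Cnn1, where a negative value marks a signal below that of Flk1+ MPCs. Of the 21 pairs of neighbours in the genes' orders of populations, 2 lay within 2 errors: Flk1+ MPCs and sfPCBs for Actc1, and M+CMs and sfPCBs for Tagln.

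Among the 7 genes, Acta2 and Actg2 had the most alike patterns, with a distance of 1.62 between their centred log2 signals over the 4 populations and Acta1 with Acta2 the next. Actc1 and Tagln were farthest apart at 5.89, and the gene nearest to Actc1 was Cnn1 at 2.93. Of 14901 other identifiers with a symbol and a detected signal, those nearest to Actc1 were Myl4 (distance 0.58), an atrial and embryonic myosin light chain, Hrc (0.63), a calcium-binding protein of the sarcoplasmic reticulum, Hdac9 (0.69), Xirp1 (0.80) and Fbxl22 (0.95). Myl4 read 7600 in Flk1+ MPCs, 244632 in PCBs, 7787 in sfPCBs and 602696 in M+CMs. The nearest to Acta2 was Tgm2 (0.29), a transglutaminase that crosslinks proteins, which read 56.4, 4895, 3977 and 7633 in the same order, followed by Alcam, Itgb3 and Dysf (1.14 each) and Meis1 (1.32). These distances rest on 4 arrays and carry no test.

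Among 17 other smooth muscle and cytoskeletal genes, PCBs were at least 2-fold above Flk1+ MPCs for 8 and below for 1 (Itga8), beside 12.8% and 12.1% of all identifiers, with a median log2 ratio of 0.60. In sfPCBs 6 of the 16 compared were higher and none was lower, beside 13.2% and 12.6% of all identifiers. Des, which encodes the intermediate filament desmin, read 104 in Flk1+ MPCs, 3702 in PCBs, 453 in sfPCBs and 7679 in M+CMs. Synpo2, an actin-binding Z-disc protein, was not well above background in Flk1+ MPCs and read 2009 in PCBs, 433 in sfPCBs and 1769 in M+CMs. Kcnmb1, a potassium channel subunit of smooth muscle, read 51.7, 817, 95.3 and 494 in Flk1+ MPCs, PCBs, sfPCBs and M+CMs. Between PCBs and sfPCBs, 5 of the 17 were higher (Des, Kcnmb1, Tpm1, Synpo2 and Lmod1) and 3 lower (Itga8, Cald1 and Mylk), beside 6.19% and 7.61% of all identifiers, so this wider list, like the 7 genes, had members on both sides. Lmod1 was not well above background in sfPCBs, and PCBs were at least 2.06-fold higher. Pdlim7, a cytoskeletal LIM protein, read 28724 in PCBs and 2340 in M+CMs. From PCBs to M+CMs 5 of the 17 were higher and 4 lower, beside 20.6% and 15.3% of all identifiers, and the counts turned to 2 and 6 without scaling.

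Among 11 non-muscle paralogs of the same families, 1 (Tagln3) passed 2-fold upwards from Flk1+ MPCs to PCBs, where 12.8% of all identifiers did. Between PCBs and sfPCBs none was higher or lower, beside 6.19% and 7.61% of all identifiers. Tagln2 and Myh9 spanned 4.48 and 3.18 on the log2 scale over the populations. Myh10, another non-muscle myosin heavy chain, read 5070 in Flk1+ MPCs and 12880.3 in sfPCBs. In M+CMs 3 of the 11 were lower than in PCBs, beside 15.3% of all identifiers: Tagln2 (from 40196 to 2756), Myh9, a non-muscle myosin heavy chain (from 28256 to 4969), and Tagln3 (from 455 to 194). Tagln and Tagln2 thus went opposite ways between these arrays, since Tagln was 1.79-fold higher in M+CMs.

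Of 10 genes for SRF and its cofactors, 6 passed 2-fold upwards from Flk1+ MPCs to PCBs and 5 did so to sfPCBs, where 12.8% and 13.2% of all identifiers did. None was lower in either, where 12.1% and 12.6% of all identifiers were. In PCBs over sfPCBs, 3 of the 10 were higher (Myocd, Csrp3 and Hopx) and 1 lower (Fhl2), beside 6.19% and 7.61% of all identifiers. Myocd, which encodes myocardin, read 156 in Flk1+ MPCs, 16719 in PCBs, 984 in sfPCBs and 13450 in M+CMs, a log2 ratio of 4.09 for PCBs over sfPCBs. Srf itself read 9297, 16636.5, 9491 and 19508 in the same order, and was named after its values were seen. Csrp3, a muscle LIM protein, and Hopx, a homeodomain protein that acts on SRF, were also higher in PCBs than in sfPCBs, by log2 ratios of 3.74 and 3.04, and both were highest in M+CMs (58449 and 14727). Fhl2, another LIM protein, went the other way, at 9036 in sfPCBs and 3841 in PCBs.

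TGF-beta induces several smooth muscle genes, and EW7197 inhibits its receptor ALK5. Of 12 TGF-beta pathway genes read, none was at least 2-fold higher and 5 were lower in PCBs than in sfPCBs, beside 6.19% and 7.61% of all identifiers, with a median log2 ratio of -0.87. The 5 were Tgfbi, Skil, Ctgf, Smad7 and Tgfb1. Tgfbi, a secreted matrix protein named for its induction by TGF-beta, read 3407 in Flk1+ MPCs, 21486 in PCBs, 100726 in sfPCBs and 15063 in M+CMs. Of the 7 genes, 1 (Actg2) was at least 2-fold lower in PCBs than in sfPCBs and 2 (Actc1 and Cnn1) were higher. The shares over all identifiers were again 7.61% and 6.19%. Short of 2-fold, Tagln was lower in PCBs (1.82-fold) and Acta1, Acta2 and Myl9 were higher. Whether any of this follows from ALK5 inhibition was not tested. Not all of the list was 2-fold lower in PCBs: Ltbp2 read 15956 in sfPCBs and 16802 in PCBs. The ligands Tgfb3 and Tgfb2 read 1969 and 21191 in sfPCBs against 1584 and 32868 in PCBs.

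**Figure D4:**
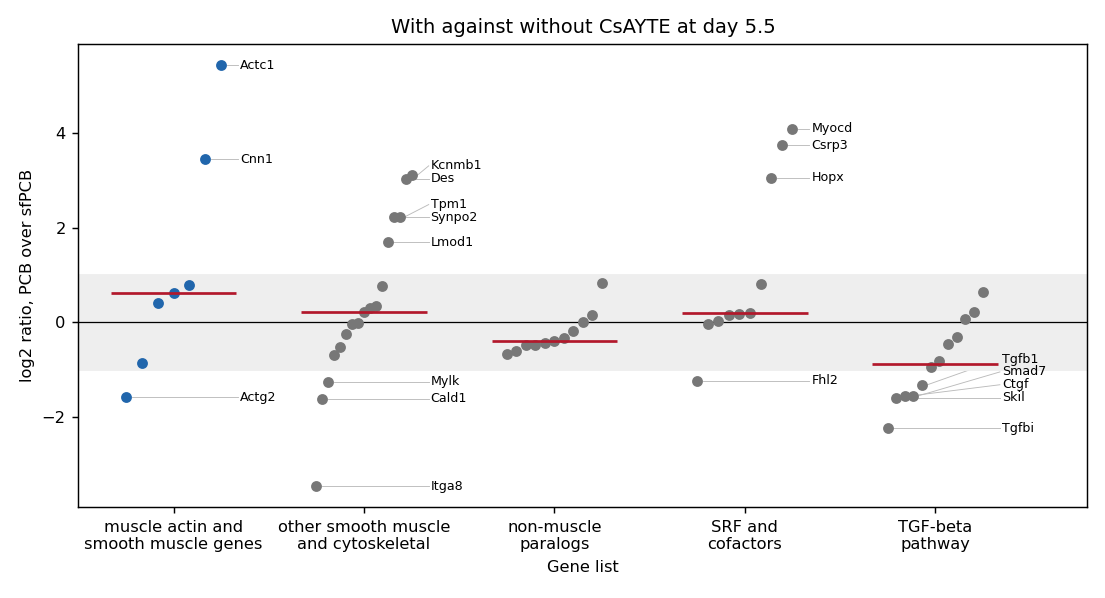
Log2 ratio of PCBs over sfPCBs for the 7 genes (blue) and the members of 4 other lists (grey) compared, with the median of each list as a red line, grey for less than 2-fold and names for genes past it. The TGF-beta pathway genes past 2-fold were lower in PCBs (5 of 12), whereas no non-muscle paralog passed and the SRF list held Myocd (4.09) at the top.

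Markers of other cell types also differed between the day 5.5 populations. The summed signal of 10 stromal markers was 4299 in Flk1+ MPCs, 158541 in PCBs, 305590 in sfPCBs and 30500 in M+CMs, with 6, 9, 10 and 10 of the 10 well above background. Of the 10, 6 were at least 2-fold lower in PCBs than in sfPCBs and none was higher. Over all identifiers 7.61% were lower and 6.19% higher. The median log2 ratio was -1.15 for the 10 markers and 0.02 for all identifiers. Among the lower, Lum read 8782 in sfPCBs and 30.2 in PCBs, and Postn read 12884 in sfPCBs and was not well above background in PCBs, while Fbn1 read 7266 and 7016 and Thy1 read 102 and 147. The sum of 6 pericyte markers, 6 of them detected on every array, was 92240, 51338, 78827 and 34888 in the same order, and that of 5 endothelial markers 298, 237, 3146 and 426, with 3, 2, 4 and 2 detected. Actg2 and Tagln were higher in sfPCBs, where the stromal and pericyte sums were also higher than in PCBs. Other pairs of arrays differed. In Flk1+ MPCs, where Actg2 (22.1) and Tagln (16450) were lowest, the stromal sum was lowest but the pericyte sum highest. The pericyte sum there was carried by Mcam (47031), Anpep (23609) and Notch3 (19693). In sfPCBs over Flk1+ MPCs, 3 of the 6 pericyte markers (Pdgfrb, Rgs5 and Cspg4) were at least 2-fold higher and 1 (Anpep) lower. Over all identifiers 13.2% were higher and 12.6% lower. Both genes were also higher in M+CMs (2570 and 57784) than in PCBs, while both sums were lower. In PCBs the stromal sum was carried by Col1a2 (109298) and Col1a1 (28385.5), which read 18307 and 860 in M+CMs. Marker by marker, the stromal list was split. From PCBs to M+CMs, 4 of the 10 rose 2-fold or more (Lum, Dcn, Postn and Vcam1) and 4 fell. Of the 6 pericyte markers, 1 rose and 4 fell by that much. Over all identifiers 20.6% rose and 15.3% fell. The part of stromal cells and pericytes in the signals of Actg2 and Tagln was not tested. Fewer cells of a type and less RNA per cell cannot be told apart in such bulk samples.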

How the data were processed

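RNA of 4 populations was measured on 1-colour Agilent arrays, 1 per population. Spot intensities, written by Feature Extraction 11.5.1.1 and deposited by the authors, hold a background-subtracted processed signal, together with a table of the same signals on the log2 scale. That deposited log2 table was neither scaled nor centred (column medians 6.88, 7.40, 7.19 and 7.16 for Flk1+ MPCs, sfPCBs, PCBs and M+CMs). The file headers annotate the design on mm9, with identifiers and no symbols, so gene names and coordinates came from RefSeq (GRCm38.p6), which named 21711 of the 33226 identifiers.

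Control and flagged spots (87 to 144 per array) were dropped and each array was scaled to the mean 75th percentile (2198). Repeated spots were averaged on the log2 scale. An identifier was represented by its brightest probe and compared where at least 1 of both arrays had it well above background. At least 2-fold was called, and no offset was added. The number of arrays limits the precision, and no test was run. Quantile normalization and normexp used R 4.3.3 with limma 3.58.1. Other steps used Python 3.11.15, numpy 2.4.6 and pandas 2.3.3, with matplotlib 3.10.9 for figures, and the counting was tested on simulated data.

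The genes and lists were chosen with earlier results of these data known. Named were all 8 listed genes, the 4 genes with the largest spread over the populations in each of the 4 gene lists (marker lists not among them), the 5 identifiers nearest to Actc1 and to Acta2, and, chosen after their values were seen, the genes behind small counts, Myh11 by its other identifier, Actb, Actg1, Srf and the single markers. Some listed genes are not reported here and were left out of the lists' counts. The alternatives are given at the end.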

Additional observations from a re-analysis of the deposited data

Results flagged for a closer look

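Cnn1 moved in opposite directions from the same Flk1+ MPC array with and without CsAYTE. Its log2 ratio was 2.76 in PCBs and -0.67 in sfPCBs, each larger than its error of 0.20, in 1 array each, and the difference was not tested.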

How the results depend on the processing

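Over 9 alternatives, the 35 log2 ratios of the 7 genes kept their sign except that of Actc1 for sfPCBs over Flk1+ MPCs, -0.02, which was 0.08 with quantile normalization, 0.32 without scaling and 0.10 with normexp background correction. The number of the 7 genes at least 2-fold lower in PCBs than in sfPCBs went from 1 to 2 without scaling, and the number higher from 2 to 3 with normexp. In sfPCBs over Flk1+ MPCs, the number past 30-fold went from 2 to 1 with normexp or an offset of 50, in PCBs over Flk1+ MPCs from 2 to 3 without scaling, and in M+CMs over Flk1+ MPCs from 5 to 4 with normexp. The ratio of Actg2 in M+CMs over Flk1+ MPCs went from 6.86 (error 0.33) to 4.64 with normexp and 5.18 with the offset. The offset also lowered the Actg2 ratio over Flk1+ MPCs to 4.76 for sfPCBs and 3.26 for PCBs. Without scaling, the median over all identifiers went from -0.20 to -0.01 for PCBs over Flk1+ MPCs, from -0.22 to 0.12 for sfPCBs over Flk1+ MPCs, from 0.02 to -0.13 for PCBs over sfPCBs and from 0.16 to -0.05 for M+CMs over PCBs, and the share of calls that were higher went from 51.5% to 61.8% in the first, from 51.1% to 70.7% in the second, from 44.9% to 35.1% in the third and from 57.3% to 45.9% in the last of these. The cause was not tested. For PCBs over sfPCBs, the identifiers called higher numbered 1562 and ranged from 712 with the offset to 2409 without the detection filter, those called lower numbered 1918 and ranged from 1011 to 2376, and those 30-fold higher numbered 67 and ranged from 28 to 67. For PCBs over Flk1+ MPCs the ranges were 2031 to 3863 higher, 1750 to 4073 lower and 131 to 393 30-fold higher, and for sfPCBs over Flk1+ MPCs they were 2136 to 4568, 1722 to 4571 and 116 to 401. For M+CMs over PCBs they were 3415 to 6200 higher and 2886 to 5002 lower, and for M+CMs over Flk1+ MPCs 3940 to 6522, 4312 to 6415 and 220 to 521. Other detection filters, averaged probes and saturated spots left out could not change the ratios of the 7 genes. Each gene had 1 probe and was well above background on every array, and no spot was saturated. The deposited log2 table holds the same signals and shifted no ratio by over 0.02. These alternatives therefore say nothing of how stable the 7 genes are.

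No paired analysis was possible because each population had 1 array, and leaving out a replicate was not possible either. Signals near background limit the ratios of dim genes, here Actg2 in Flk1+ MPCs and Myh11.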
